A study of Mus musculus with 8 samples.

Results

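The probes described here separated Foxp3+ from Foxp3- thymocytes in E2A and HEB knockout (KO) mice and not, by the same rule, in wild-type (WT) mice. They were chosen on the group means of the authors' processed log2 values. K is the KO Foxp3+ mean minus the KO Foxp3- mean, and D is the WT Foxp3+ mean minus the WT Foxp3- mean. A probe was a member where the absolute D was under 0.3 and the absolute K was at least 0.6. Of 14942 probes, 11680 had so small a D and 753 had so large a K, and 88 met both conditions. Among these, 48 probes of 42 genes had a positive K, so their signal was higher in KO Foxp3+ cells than in KO Foxp3- cells. The other 40, of 35 genes, had a negative K. In all, 4 members had no gene name in the annotation used. K and D of the members are therefore a description, and limma calls on them are no support.

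RNA came from thymocytes sorted as CD4+Foxp3+ or as CD4 single-positive Foxp3- cells, with 2 arrays in each of 4 groups. The KO mice carried floxed E2A and HEB alleles (E2Af/f HEBf/f), ER-Cre, a Cre recombinase that tamoxifen switches on, and Foxp3KI, a knock-in at the Foxp3 locus. The WT mice carried Foxp3KI alone, and by the labels tamoxifen was given by mouth to either kind, in 4 doses of 3 mg within 10 days. ER-Cre and the floxed alleles were present in KO mice alone, so an effect of Cre and an effect of the deletion cannot be told apart. No label says which cells express ER-Cre. Both KO groups thus shared the floxed alleles, the Cre and the tamoxifen, and differed by the sort. The 4 groups were KO Foxp3+, KO Foxp3-, WT Foxp3+ and WT Foxp3- cells. The labels do not say that the replicates came from separate mice, so each p-value measures the spread between these arrays, which may be technical.

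E2A and HEB are E proteins, a class of basic helix-loop-helix factors that bind E-box motifs as dimers and that Id proteins hold off DNA. In the thymus they drive early T cell differentiation and restrain entry into effector and innate-like programmes. Foxp3 is the transcription factor that defines regulatory T cells, which suppress the responses of other T cells.

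On the neqc scale used for all tests (background-corrected, quantile-normalized log2 intensity), the brighter Foxp3 probe stood at 9.05 and 9.73 in KO Foxp3+ cells, 4.29 and 4.29 in KO Foxp3- cells, 9.74 and 9.90 in WT Foxp3+ cells and 4.27 and 4.52 in WT Foxp3- cells. This probe was not above background on any Foxp3- array, and a second, dim Foxp3 probe was detected on 1 of the 8 arrays and read 4.35 to 4.82. Tcf12, which encodes HEB, read 6.44 and 6.22 in KO Foxp3+ cells and 6.86 and 6.74 in KO Foxp3- cells, against 7.28 and 7.48 in WT Foxp3+ cells and 7.66 and 7.57 in WT Foxp3- cells. All 4 KO arrays lay below all 4 WT arrays. The average difference was -0.93 (limma, adjusted p = 0.00049). Where its probe lies relative to the floxed exons is not given. No probe of the authors' processed values was named Tcf3, which encodes E2A, so the loss of E2A could not be checked. Between 11462 and 12540 of 25697 probes were detected per array at a detection p under 0.05, with a mean intensity of 358.9 to 433.5. The KO Foxp3+ arrays differed most from each other. Their median SD was 0.18 over the members, against 0.10 in KO Foxp3- cells, 0.07 in WT Foxp3+ cells and 0.10 in WT Foxp3- cells.

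The members as a whole set the KO Foxp3- cells apart from the other 3 groups. On the authors' scale, both KO Foxp3- arrays lay below the other 6 arrays for 41 of the 48 members with positive K, an order that 9.37% of all probes had. They lay above the other 6 for 38 of the 40 with negative K, against 12.2% of all probes. The 7 exceptions with positive K were Hbb-b2, Rapsn, Celf2, Blk, Zfp871, P4ha1 and Cpne4, and those with negative K were Pcbp1 and Nhp2. The median distance of KO Foxp3- cells from the WT mean was -0.61 for positive K and 0.77 for negative K, on the authors' log2 scale. For KO Foxp3+ cells these medians were 0.09 and -0.05. The range of the KO Foxp3+ arrays touched the WT range for 24 of 48 and for 20 of 40 members. Since the rule used the KO means, these orders are partly fixed by it.

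**Figure D1:**
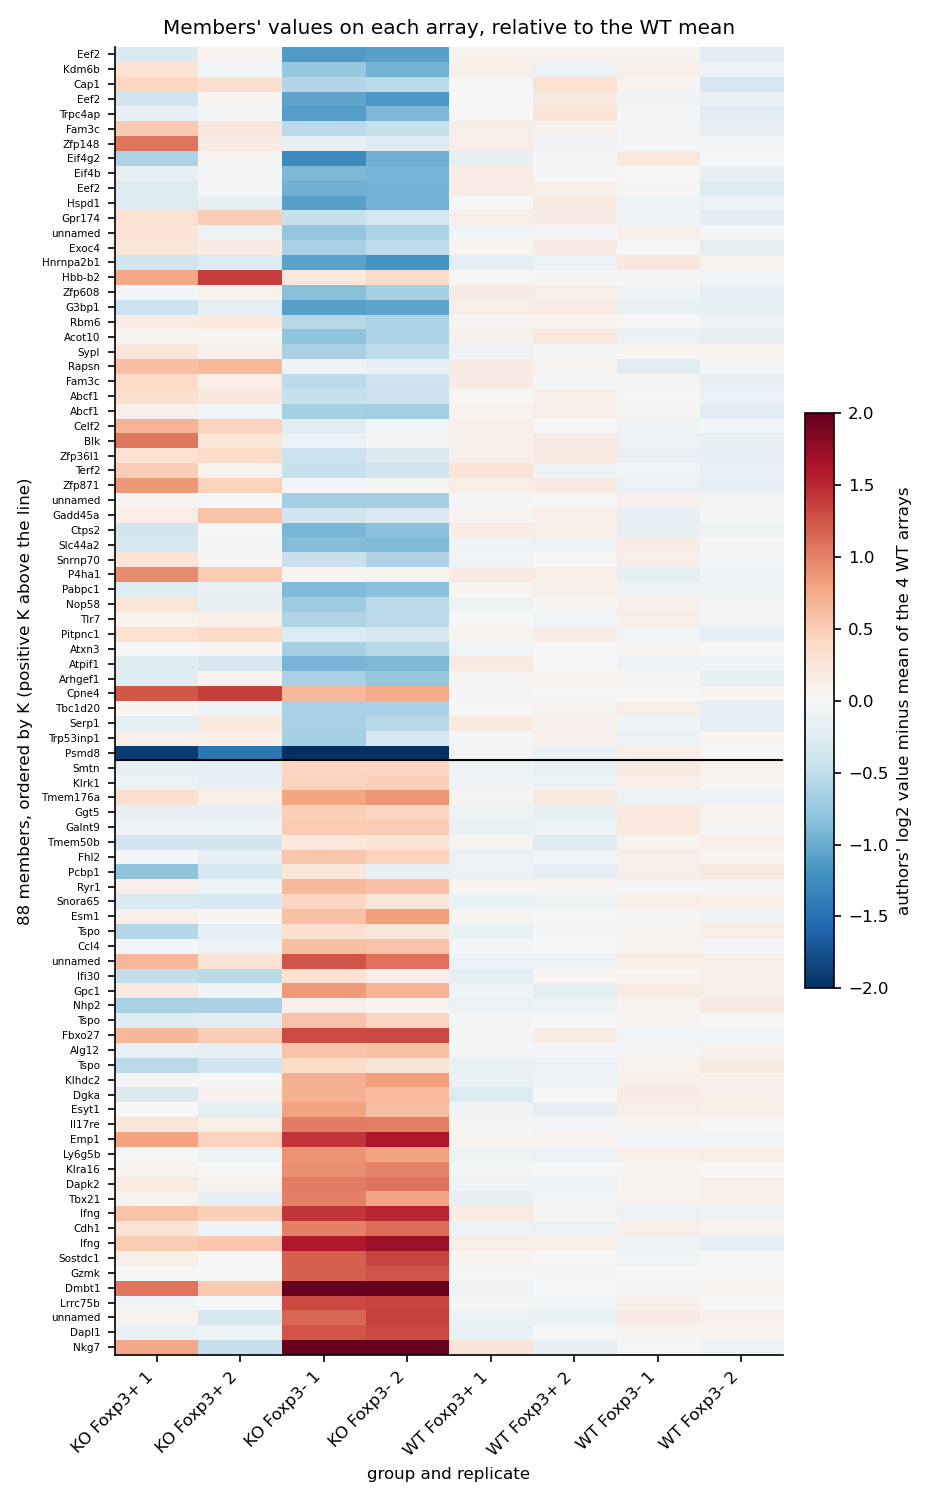
Values of the 88 members on each of the 8 arrays, as the authors' log2 value minus the mean of the 4 WT arrays; rows are probes ordered by K, columns are arrays, and colours are cut at -2 and 2. The 2 KO Foxp3- columns are blue for most of the 48 members above the line and red for most of the 40 below it, while the KO Foxp3+ columns are paler.

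KO Foxp3+ cells stood at an end of the order of arrays for fewer members. This order does not say which group was furthest from the others. Both KO Foxp3+ arrays lay above the other 6 for 18 of the 48 members with positive K, against 7.02% of all probes. Among them were Gadd45a, a stress-induced growth arrest gene, Gpr174, a receptor for lysophosphatidylserine, and Zfp36l1, which promotes mRNA decay. Both lay below the other 6 for 12 of the 40 with negative K, against 7.15% of all probes. All 3 probes of Tspo, a protein of the outer mitochondrial membrane, were among these 12. For Gadd45a, Gpr174, Zfp36l1 and the Tspo probes, the KO Foxp3- arrays lay at the opposite end of the order.

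All 88 members passed the filter on dim probes. On the neqc scale all 48 members with positive K and all 40 with negative K passed the limma test of KO Foxp3+ against KO Foxp3- cells. That contrast called 12.1% of the 13526 probes tested as higher and 12% as lower. The rule chose the members on it, so nothing is read from these counts. The label that the fractions were alike in WT held less well on this scale. The absolute D stayed under 0.3 for 35 of 48 and 22 of 40 members, and limma called D for 2 with positive K and 10 with negative K. The share of all tested probes with a call on D is not given here. On the authors' scale, D had the sign of K for 35 of 48 and 31 of 40 members. The authors' values were normalized without background subtraction, which compresses differences of dim probes. K of Gzmk was -1.22 on the authors' log2 scale and -3.00 on the neqc scale.

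The rule did not fix in which direction a member above background in WT moved on average in KO. The average genotype difference, M, is KO minus WT over both fractions, and is orthogonal to K and D with 2 arrays in every group. Its error is not wholly independent of that of K, because the KO Foxp3+ arrays varied most. Of the 48 members with positive K, 25 were lower in KO by limma, 5 were higher and 18 were not called. Over all tested probes 11.6% were called lower and 11% higher. Of the 40 with negative K, 29 were higher in KO, 1 was lower (Nhp2, a subunit of the ribonucleoproteins that modify ribosomal RNA) and 10 were not called. The count of 5 was 3, and Nhp2 lost its call, when some single arrays were left out. The median M was -0.35 for positive K and 0.87 for negative K, against 0 over all tested probes. A probe whose fractions part in KO alone must leave the WT level in at least 1 KO fraction, so a large share of calls is built in. The direction of M is not fixed by the rule for probes above background in WT, but a probe at background there could only rise. In all, 2 members with positive K and 7 with negative K were detected on no WT array. With the test restricted to probes detected on all 8 arrays, 15 of the 24 members with negative K that were left were called higher. In that fit 51.5% of all calls were higher in KO. Under median scaling 32.4% of all calls were higher in KO, against 48.7% in the fit described, with 27 lower and 4 higher among positive K and 26 higher and 1 lower among negative K. In bulk RNA, fewer cells of a type and less RNA per cell cannot be told apart.

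**Figure D2:**
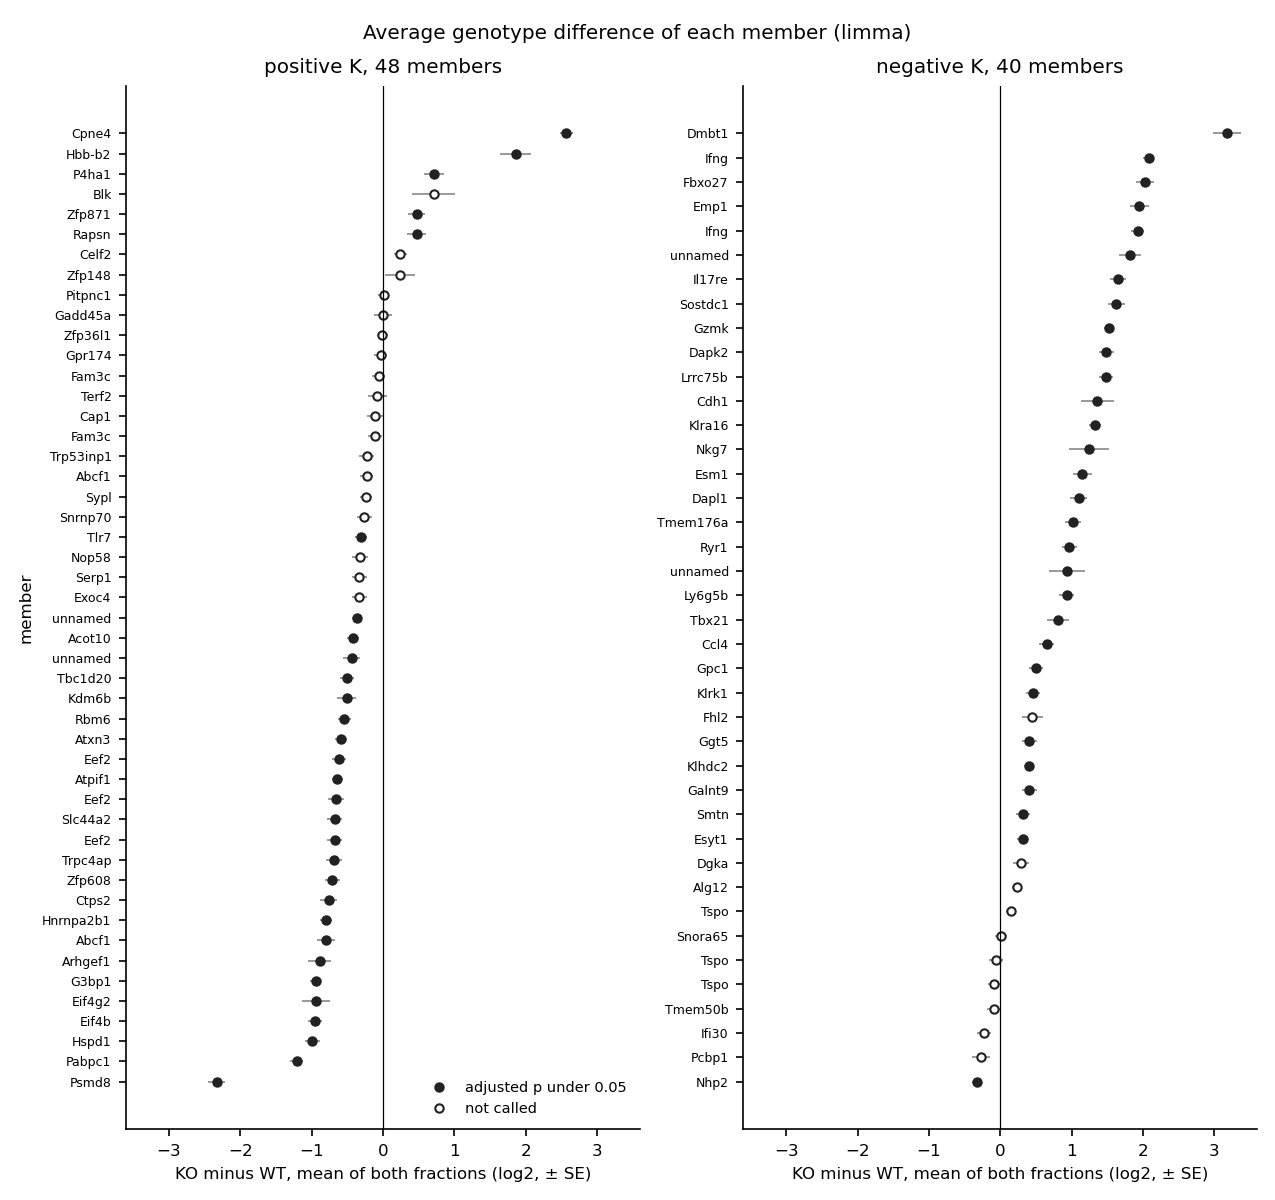
Average genotype difference of each member with positive K (left) and negative K (right), as log2 KO minus WT over both fractions with its limma SE; filled points had an adjusted p under 0.05. Most points lie left of 0 for positive K and right of 0 for negative K.

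**Figure D3:**
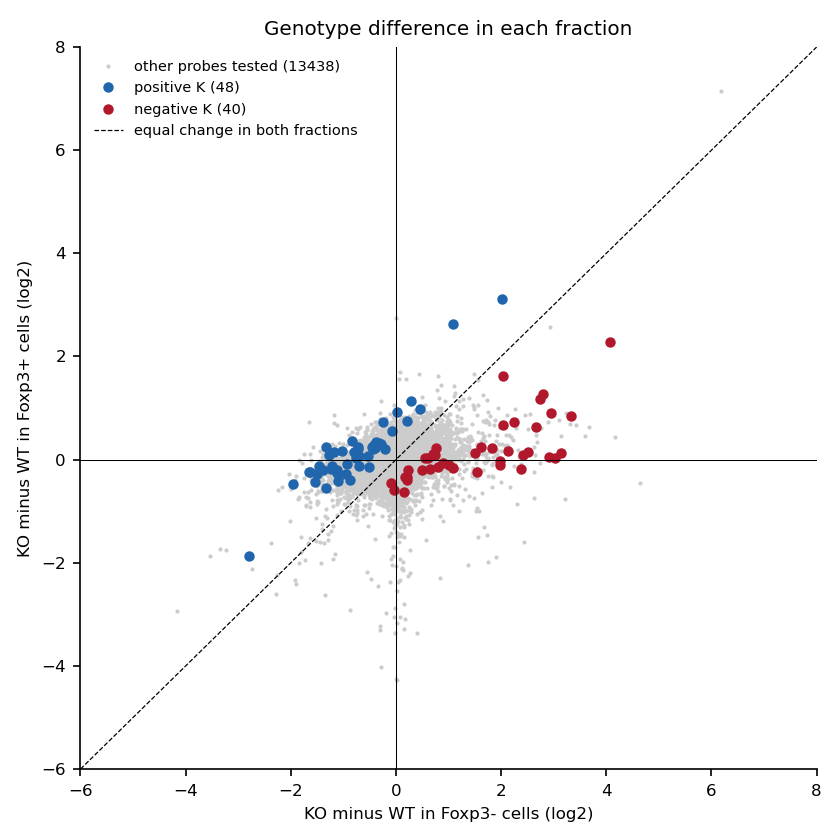
KO minus WT in Foxp3- cells (horizontal) and in Foxp3+ cells (vertical) for all 13526 tested probes, in log2 units on the neqc scale; the 48 members with positive K are blue and the 40 with negative K red. Most members lie off the dashed line of equal change and near 0 on the vertical axis, and Psmd8, Hbb-b2, Cpne4 and Dmbt1 lie far from 0 on both axes.

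Promoters of 5 members are shown because E proteins bind E-boxes. They are the 250 bases before the RefSeq start on GRCm38.p6, written 5′ to 3′ on the gene's strand, with matches to the E-boxes CAGCTG and CACCTG, or to CAGGTG, which is the second one read on the opposite strand, in capitals. The windows are Ifng at chr10:118440796-118441045 (+), Tbx21 at chr11:97115332-97115581 (-), Gzmk at chr13:113180966-113181215 (-), Nkg7 at chr7:43436888-43437137 (+) and Eef2 at chr10:81176381-81176630 (+). Ifng and Tbx21 each held 1 CAGGTG, Eef2 held 1 CAGCTG, and the windows of Gzmk and Nkg7 held none of these letters.
Ifng: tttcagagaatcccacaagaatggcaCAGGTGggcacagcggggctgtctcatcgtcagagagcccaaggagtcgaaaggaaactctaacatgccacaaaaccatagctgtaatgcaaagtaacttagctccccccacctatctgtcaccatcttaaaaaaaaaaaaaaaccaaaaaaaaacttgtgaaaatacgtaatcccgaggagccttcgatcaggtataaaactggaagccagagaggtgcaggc
Tbx21: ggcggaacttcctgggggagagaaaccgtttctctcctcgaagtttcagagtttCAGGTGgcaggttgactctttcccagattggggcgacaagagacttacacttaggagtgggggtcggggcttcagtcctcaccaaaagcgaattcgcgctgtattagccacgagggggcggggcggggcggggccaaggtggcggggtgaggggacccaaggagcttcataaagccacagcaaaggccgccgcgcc
Gzmk: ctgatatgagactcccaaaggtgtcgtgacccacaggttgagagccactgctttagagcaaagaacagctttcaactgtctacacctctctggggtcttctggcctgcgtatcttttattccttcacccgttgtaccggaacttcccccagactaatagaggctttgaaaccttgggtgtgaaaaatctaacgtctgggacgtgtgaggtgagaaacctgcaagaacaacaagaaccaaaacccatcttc
Nkg7: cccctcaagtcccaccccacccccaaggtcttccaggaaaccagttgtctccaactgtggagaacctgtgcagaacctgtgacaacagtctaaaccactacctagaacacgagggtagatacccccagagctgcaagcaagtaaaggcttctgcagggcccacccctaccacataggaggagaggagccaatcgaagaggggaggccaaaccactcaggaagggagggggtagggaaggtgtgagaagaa
Eef2: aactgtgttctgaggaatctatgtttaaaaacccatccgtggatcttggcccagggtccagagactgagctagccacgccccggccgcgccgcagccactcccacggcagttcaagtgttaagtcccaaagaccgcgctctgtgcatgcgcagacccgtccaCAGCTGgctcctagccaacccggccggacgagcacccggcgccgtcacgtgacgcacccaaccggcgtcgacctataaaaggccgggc
The first motif is its own reverse complement, so both strands are covered. Over the members' promoters in the RefSeq table, 7 of 48 windows with positive K (14.6%) and 5 of 36 with negative K (13.9%) held CAGCTG, against 12.2% of 10542 windows of all genes on the array table. The second, CACCTG on either strand, stood in 5 of 48 (10.4%) and 9 of 36 (25%), against 16%. Windows of 33 and 25 genes were matched, and alternative starts of the same gene were counted as separate windows. Several of the negative K windows with the second motif belonged to Fbxo27. A match is a description of letters and not a binding site.

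Members with negative K included a group of effector and cytotoxic genes that were higher in KO Foxp3- cells: Nkg7, Gzmk, Ifng, Tbx21, Ccl4, Klrk1 and Klra16. The member probes of all 7 were called higher in KO on average, though those of Gzmk and Klra16 were above background on the KO Foxp3- arrays alone. Ifng encodes interferon gamma, the signature cytokine of type 1 responses, and both of its probes were members. The brighter difference came from the probe that read 6.73 and 6.81 in KO Foxp3+ cells, 8.40 and 8.56 in KO Foxp3- cells, 5.95 and 5.90 in WT Foxp3+ cells and 5.26 and 5.04 in WT Foxp3- cells. All 4 KO arrays lay above all 4 WT arrays, and the KO Foxp3- arrays were highest. M was 2.08 ± 0.08 (SE; limma, adjusted p = 8.18e-06), and 1.93 ± 0.09 for the second Ifng probe. D of these probes was 0.25 and 0.21 on the authors' scale, and 0.77 and 0.60 on the neqc scale (1.71-fold and 1.52-fold). WT Foxp3+ cells thus stood above WT Foxp3- cells, and KO showed the opposite order. Ifng met the bar on D only on the authors' scale.

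Tbx21 encodes T-bet, the transcription factor that activates Ifng in type 1 helper T cells. It read 5.81 and 5.10 in KO Foxp3+ cells and 7.60 and 7.28 in KO Foxp3- cells, against 5.17 and 5.49 in WT Foxp3+ cells and 5.86 and 6.01 in WT Foxp3- cells. Only the KO Foxp3- arrays lay apart, and the KO Foxp3+ arrays overlapped WT Foxp3+. M was 0.81 ± 0.16 (limma, adjusted p = 0.0118). Gzmk, a granzyme of cytotoxic lymphocyte granules, was above background on the KO Foxp3- arrays alone. It read 7.30 and 7.40 there, 4.35 and 4.33 in KO Foxp3+ cells, 4.35 and 4.28 in WT Foxp3+ cells and 4.32 and 4.30 in WT Foxp3- cells. KO Foxp3- cells were at least 6.34-fold above KO Foxp3+ cells and at least 6.09-fold above WT Foxp3- cells. M was 1.53 ± 0.07 (limma, adjusted p = 1.75e-05). The probe passed the filter through the KO Foxp3- arrays alone, so this call adds no support beyond K, which chose it. For such a bound the dim group's level on each array was taken as the lowest signal of any detected probe, or as the probe's own signal where that was higher.

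Nkg7, a granule membrane protein of natural killer and cytotoxic T cells, had the lowest K of all members, at -1.97 on the authors' scale. It read 9.58 and 8.11 in KO Foxp3+ cells and 11.06 and 11.04 in KO Foxp3- cells, against 9.0 and 8.51 in WT Foxp3+ cells and 8.71 and 8.58 in WT Foxp3- cells. The KO Foxp3+ arrays lay on either side of all 4 WT arrays, so their mean rests on arrays far apart. M was 1.25 ± 0.28 (limma, adjusted p = 0.0176). It lost the call, with M between 1.12 and 1.28, when replicate 2 of WT Foxp3+ or any single Foxp3- array, KO or WT, was left out.

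Ccl4, a chemokine released by activated T and natural killer cells, had an M of 0.65 ± 0.11 (limma, adjusted p = 0.0055). The member probe of Klrk1, the activating receptor NKG2D, was not above background in either Foxp3+ group. It was at least 2.84-fold higher in KO Foxp3- than in KO Foxp3+ cells. In WT Foxp3- cells it was above background, at 5.31 and 4.90. D was -0.61 on the neqc scale (limma, adjusted p = 0.0152), so its fractions also parted in WT on that scale. Its M was 0.46 ± 0.10 (limma, adjusted p = 0.0161), a call lost at M = 0.44 without WT Foxp3+ replicate 2 and at 0.45 without KO Foxp3- replicate 2. The member probe of Klra16, of the Ly49 receptor family, was above background on the KO Foxp3- arrays alone, at least 4.92-fold over KO Foxp3+ cells. Its M of 1.33 ± 0.08 rests on those arrays, so it adds no support beyond K. Ly49 genes are near-identical, so its probe may read several of them. The member probe of Il17re, a receptor subunit for interleukin 17C, was not above background in WT. It was at least 5.03-fold higher in KO Foxp3- than in WT Foxp3- cells, and M was 1.65 ± 0.11. From background in WT it could only rise, so this M adds no support beyond the rule.

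**Figure D4:**
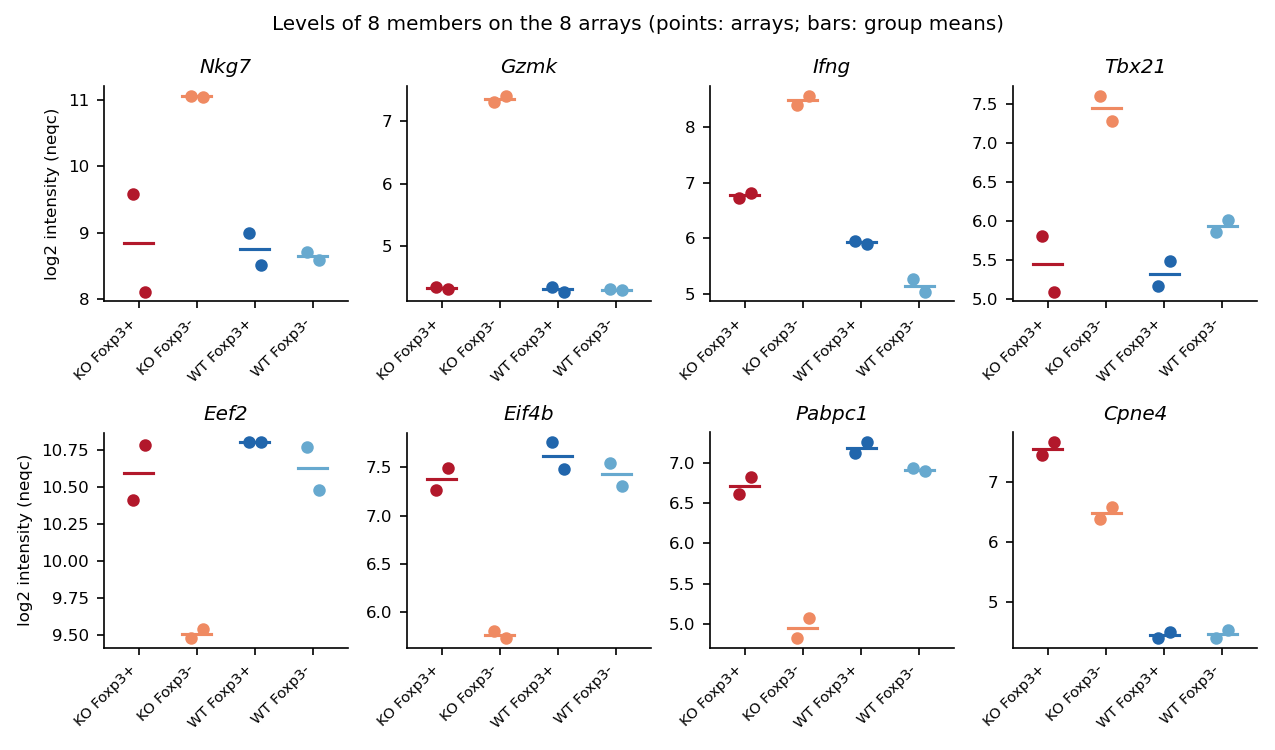
Levels of 8 members on the neqc log2 scale by group; points are single arrays and bars are means of 2. Nkg7, Gzmk, Ifng and Tbx21 are highest in KO Foxp3- cells, Eef2, Eif4b and Pabpc1 are lowest there, and Cpne4 is higher in both KO groups than in both WT groups.

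Markers of other cells were counted beside these genes. For each gene list the share to compare is that over all tested probes, 11% called higher in KO and 11.6% lower. Of 8 probes for CD8 T cell markers, 4 had a higher average in KO and 0 a lower one, with a median M of 0.58. Nkg7 and Gzmk are on that list and are members. Without them, 2 of 6 probes were higher and 0 lower, with a median M of 0.28. Both are part of the sum that follows. Summed over the list, the linear signal was 2130 to 4267 in KO Foxp3+ cells, 6782 to 6795 in KO Foxp3- cells, 3240 to 3619 in WT Foxp3+ cells and 2624 to 2746 in WT Foxp3- cells. The median KO minus WT difference in Foxp3- cells over the 8 probes, Nkg7 and Gzmk included, was 1.23. Cd8b1 is also on that list. Its brighter probe read 10.32 and 9.56 in KO Foxp3+ cells and 9.66 and 9.76 in KO Foxp3- cells, against 10.08 and 9.84 in WT Foxp3+ cells and 10.64 and 10.65 in WT Foxp3- cells, so the KO Foxp3- arrays were below the WT Foxp3- arrays. Of 10 probes for natural killer, natural killer T and gamma delta T cells, 2 were higher and 2 lower in KO on average. Without the members Blk and Klrk1, 1 of 8 was higher and 2 were lower. The sum of all 10 was 144.9 to 430.3 in KO Foxp3+ cells and 1649 to 1913 in KO Foxp3- cells. It was 1009 to 1142 in WT Foxp3+ cells and 827.2 to 833.3 in WT Foxp3- cells. The part of such cells in the effector genes was not tested.

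Related genes were counted with and without the members. Over 45 probes for cytokines, chemokines and their receptors, 19 were higher and 6 lower in KO on average, with a median M of 0.15. Without the 3 members, 16 of 42 were higher and 6 lower. Over 26 probes for granzymes, perforin, Nkg7 and killer cell receptors, a list drawn up once the members were known, 10 were higher and 1 lower, with a median M of 0.27. Without the 4 members, 6 of 22 were higher and 1 lower. Prf1, which encodes perforin, had a probe that read 5.28 and 5.13 in KO Foxp3+ cells and 6.24 and 6.48 in KO Foxp3- cells, against 5.09 and 4.94 in WT Foxp3+ cells and 4.96 and 4.91 in WT Foxp3- cells. That probe missed the bar on K. Ccl5, another effector chemokine, had an M of 2.10 (limma, adjusted p = 0.0016) and was no member because WT Foxp3+ cells already exceeded WT Foxp3- cells.

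The other members with negative K that were highest in KO came from diverse families. Dmbt1, a scavenger receptor protein of mucosal surfaces, had the highest M of all members, 3.18 ± 0.20 (limma, adjusted p = 7.87e-05). It read 7.12 and 6.05 in KO Foxp3+ cells and 8.58 and 8.53 in KO Foxp3- cells, and was not above background on any of the 4 WT arrays. From there Dmbt1 could only rise, so the call on its M adds no support beyond the rule. The bound was at least 3.83-fold in Foxp3+ and at least 14.1-fold in Foxp3- cells for KO over WT. Both KO fractions had left the WT level, KO Foxp3- cells further. The same order held for Fbxo27, a substrate adaptor of a ubiquitin ligase, with an M of 2.03 ± 0.13, and for Emp1, a tetraspan membrane protein, with 1.95 ± 0.13.

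Dapl1 and Lrrc75b parted in KO while KO Foxp3+ cells stood near the WT values. Dapl1 read 4.73 and 4.89 in KO Foxp3+ cells and 7.80 and 7.90 in KO Foxp3- cells, against 4.74 and 5.23 in WT Foxp3+ cells and 5.44 and 5.52 in WT Foxp3- cells. Lrrc75b was not above background in either Foxp3+ group, and KO Foxp3- cells were at least 7.91-fold over KO Foxp3+ cells. Sostdc1, a secreted antagonist of BMP and Wnt signalling, read 4.85 and 4.39 in KO Foxp3+ cells and 7.36 and 7.60 in KO Foxp3- cells and was not above background in WT. M was 1.10 ± 0.12, 1.48 ± 0.10 and 1.63 ± 0.12 for Dapl1, Lrrc75b and Sostdc1 in that order. Since Sostdc1 was at background in WT, it could only rise, and its M adds no support beyond the rule. Cdh1, which encodes E-cadherin, had an M of 1.36 ± 0.23, with KO Foxp3+ arrays at 5.83 and 4.60, and Dapk2, a calmodulin-dependent kinase of apoptosis and autophagy, had 1.49 ± 0.11. Of 6 probes for thymic epithelial cells, 3 were detected on no array.

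Dgka, which removes diacylglycerol and so damps T cell receptor signalling, read 11.73 and 12.11 in KO Foxp3+ cells and 12.75 and 12.67 in KO Foxp3- cells, against 11.74 and 12.04 in WT Foxp3+ cells and 12.20 and 12.13 in WT Foxp3- cells. The 2 KO Foxp3- arrays were above all others, and M was 0.29 ± 0.11 (limma, adjusted p = 0.0985). For the 3 Tspo probes M lay between -0.09 and 0.15 with none called, since KO Foxp3- cells stood above WT and KO Foxp3+ cells below it. Klhdc2, a substrate receptor of a ubiquitin ligase, and Esyt1, which tethers the endoplasmic reticulum to the plasma membrane, were higher in KO on average, by 0.41 ± 0.07 and 0.32 ± 0.09. Over all negative K members 24 of 40 (60%) were detected on every array, against 91.7% of those with positive K and 67.4% of all probes. Their median level was 7.51, against 8.74 for positive K and 7.58 for all probes, on the authors' scale.

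Members with positive K included genes of translation, which were lower in KO Foxp3- cells. Eef2, the elongation factor that moves the ribosome along mRNA, was a member with all 3 of its probes. The probe with the highest K read 10.41 and 10.78 in KO Foxp3+ cells and 9.48 and 9.54 in KO Foxp3- cells, against 10.80 and 10.80 in WT Foxp3+ cells and 10.77 and 10.48 in WT Foxp3- cells. The KO Foxp3- arrays lay below all others, and the KO Foxp3+ arrays reached into the WT range. M of the 3 probes was -0.66, -0.68 and -0.62, each with a limma adjusted p under 0.05.

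Eif4b, which aids the helicase that unwinds mRNA leaders, read 7.27 and 7.49 in KO Foxp3+ cells and 5.80 and 5.73 in KO Foxp3- cells, against 7.76 and 7.48 in WT Foxp3+ cells and 7.55 and 7.31 in WT Foxp3- cells. M was -0.95 ± 0.10 (limma, adjusted p = 0.000792). Pabpc1, the cytoplasmic poly(A)-binding protein, read 6.61 and 6.82 in KO Foxp3+ cells and 4.83 and 5.08 in KO Foxp3- cells, against 7.12 and 7.25 in WT Foxp3+ cells and 6.93 and 6.89 in WT Foxp3- cells. Here all 4 KO arrays lay below all 4 WT arrays, with an M of -1.21 ± 0.09. Eif4g2, an initiation factor of cap-independent translation, had an M of -0.94 ± 0.19, and G3bp1, an RNA-binding protein of stress granules, had -0.94 ± 0.09. Abcf1, an initiation factor partner, had 2 member probes with M of -0.80 ± 0.13 and -0.23 ± 0.09, of which the first was called.

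Most probes of the wider group of translation factors were not called. Over 87 tested probes of a list drawn up after the members were known, 15 were lower and 2 higher in KO on average, with a median M of -0.09. Without the 6 members, 9 of 81 were lower and 2 higher, so the share lower was near the 11.6% over all tested probes. The share called higher over all tested probes was 11%. Of 72 probes for cytosolic ribosomal proteins, 6 were lower and 1 higher, the median M was 0, and none was a member. The summed signal of translation factors was 136700 to 139400 in KO Foxp3+ cells, 130200 to 131500 in KO Foxp3- cells, 137900 to 138900 in WT Foxp3+ cells and 139000 to 139800 in WT Foxp3- cells. Of 35 tested probes for the cell cycle, a list without members, 23 were lower and 0 higher, with a median M of -0.53.

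A few members act in RNA processing, protein folding or protein turnover. Hnrnpa2b1, a nuclear RNA-binding protein, had an M of -0.80 ± 0.08, and Rbm6, a splicing regulator, had -0.54 ± 0.09, both called by limma. Snrnp70, of the U1 snRNP, and Nop58, of box C/D snoRNPs, were not called, at -0.26 ± 0.10 and -0.32 ± 0.11. Hspd1, the mitochondrial chaperonin, read 7.65 and 7.84 in KO Foxp3+ cells and 6.21 and 6.51 in KO Foxp3- cells, against 8.05 and 8.31 in WT Foxp3+ cells and 7.91 and 7.89 in WT Foxp3- cells, with an M of -0.99 ± 0.10. Of 32 tested probes for chaperonins and heat shock proteins, 4 were lower and 3 higher. Psmd8, a lid subunit of the proteasome, had the lowest M of all members, -2.33 ± 0.12. It read 8.26 and 8.81 in KO Foxp3+ cells and 7.72 and 7.71 in KO Foxp3- cells, against 10.48 and 10.31 in WT Foxp3+ cells and 10.58 and 10.45 in WT Foxp3- cells, so both KO fractions were below WT by more than they differed from each other.

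Kdm6b, a demethylase of histone H3 lysine 27, read 8.97 and 8.55 in KO Foxp3+ cells and 7.60 and 7.30 in KO Foxp3- cells, against 8.74 and 8.47 in WT Foxp3+ cells and 8.77 and 8.48 in WT Foxp3- cells. M was -0.51 ± 0.13 (limma, adjusted p = 0.028), a call lost at M between -0.44 and -0.45 without WT Foxp3+ replicate 1, WT Foxp3- replicate 1 or KO Foxp3- replicate 2, and at M = -0.51 with no filter on dim probes. Arhgef1, an exchange factor for RhoA, had an M of -0.89 ± 0.16. Trpc4ap, a ubiquitin ligase adaptor, had -0.69 ± 0.11, and Zfp608 had -0.71 ± 0.11.

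Cap1, which recycles actin monomers, was not called, at -0.11 ± 0.12. Both probes of Fam3c, a secreted cytokine-like protein, were members and were not called, at -0.06 ± 0.09 and -0.11 ± 0.10. Gpr174 stood at -0.03 ± 0.09 and Gadd45a at 0.00 ± 0.12. For these genes KO Foxp3+ cells lay above and KO Foxp3- cells below WT, on average. Zfp148, a zinc finger factor, read 9.37 and 8.26 in KO Foxp3+ cells, a gap wider than that between the groups, and its M of 0.24 ± 0.21 was called only at 0.52 without KO Foxp3+ replicate 2. Blk, a Src-family kinase of B and gamma delta T cells, likewise had KO Foxp3+ arrays far apart, at 7.44 and 5.90. Its M of 0.71 ± 0.30 (limma, adjusted p = 0.131) was called only at 1.09 without the same array. Of 12 tested B cell marker probes, 1 was higher and 0 lower in KO on average. Their sum was 3403 to 7203 in KO Foxp3+ cells, 1017 to 1039 in KO Foxp3- cells, 5992 to 6205 in WT Foxp3+ cells and 811.5 to 853.9 in WT Foxp3- cells. The part of B cells in the Blk values was not tested.

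The 5 members with positive K and a higher average in KO were Cpne4, Hbb-b2, P4ha1, Rapsn and Zfp871. Cpne4, a calcium-dependent phospholipid-binding protein, read 7.46 and 7.67 in KO Foxp3+ cells and 6.39 and 6.59 in KO Foxp3- cells and was not above background in WT. KO over WT was at least 7.53-fold in Foxp3+ and at least 3.38-fold in Foxp3- cells, and M was 2.57 ± 0.09. Hbb-b2, an adult beta globin whose probe may read other beta globins, read 6.66 and 7.68 in KO Foxp3+ cells and 5.27 and 5.76 in KO Foxp3- cells, with no WT array above background and an M of 1.86 ± 0.22 (limma, adjusted p = 0.00113). Cpne4 and Hbb-b2 were at background in WT and could only rise, so the calls on their M add no support beyond the rule. Without Hbb-b2, 3 of 5 erythroid marker probes were higher and 0 lower in KO on average. Of all 6, 4 were higher and 0 lower. Their sum was 6896 to 10160 in KO Foxp3+ cells, 2090 to 2400 in KO Foxp3- cells, 5120 to 5527 in WT Foxp3+ cells and 204.7 to 252.1 in WT Foxp3- cells, and the part of red cells in the Hbb-b2 values was not tested. P4ha1, a collagen prolyl hydroxylase subunit, had 0.72 ± 0.14. Rapsn, which clusters acetylcholine receptors, had 0.47 ± 0.13, and Zfp871 had 0.47 ± 0.12.

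Other probes of the same genes were set beside the members, since they share a gene with a member and were not chosen. Among members with positive K, 21 genes had 30 further probes detected on at least 2 arrays. Of these 30, 23 had a positive K, but only 9 reached 0.3 and the median K was 0.14, with a range of -0.58 to 0.57, on the authors' scale. Among members with negative K, 12 genes had 15 further probes, 13 with a negative K and 11 at or beyond -0.3, with a median of -0.45. Members were chosen for a large K, so a smaller K on the probes not chosen is in part built in. Where each probe lies on its transcript is not given here.

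The probes of some genes lay far apart. Hspd1 had a K of 0.80 on the member and 0.08 on the other probe, whose M was 0.02. Hnrnpa2b1 had 0.79 and 0.00, and its other probe had an M of -0.39. G3bp1 had 0.77 and 0.20, and Eif4g2 had 0.82 and 0.08. For Pabpc1 the member had 0.67 and the others 0.45 and 0.05. The 2 further probes of Arhgef1 ran the opposite way, at -0.58 and -0.49 against 0.62 for the member, with M of 0.30 and 0.34 that limma called higher. Dgka had -0.78 on the member, -0.60 on one further probe and 0.59 on another, whose M was -0.90. Trpc4ap had a K of 0.90 on the member and 0.21 and 0.15 on the others, whose M was 0.13 and 0.01. Kdm6b had 0.97 and 0.13, and its other probe had an M of -0.22 that was not called. The third Abcf1 probe had a K of 0.00 and an M of 0.18. The results for these genes therefore hold for the member probe and not for the gene as a whole.

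Further probes of the effector genes kept the sign of K. The second Ccl4 probe had a K of -1.17 against -0.67 for the member and an M of 0.78 (limma, adjusted p = 0.00204). It read 6.61 and 6.38 in KO Foxp3+ cells and 8.27 and 8.39 in KO Foxp3- cells, against 7.10 and 6.75 in WT Foxp3+ cells and 6.37 and 6.31 in WT Foxp3- cells. The further Klrk1 probes had a K of -0.53 and -0.78. Their M was 0.21, which limma did not call, and 0.54, which it called. The second of them had a D of -0.51, so it separated the fractions in WT too. The further Klra16 probe had a K of -2.33 with a D of -1.28, and so did the same.

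**Figure D5:**
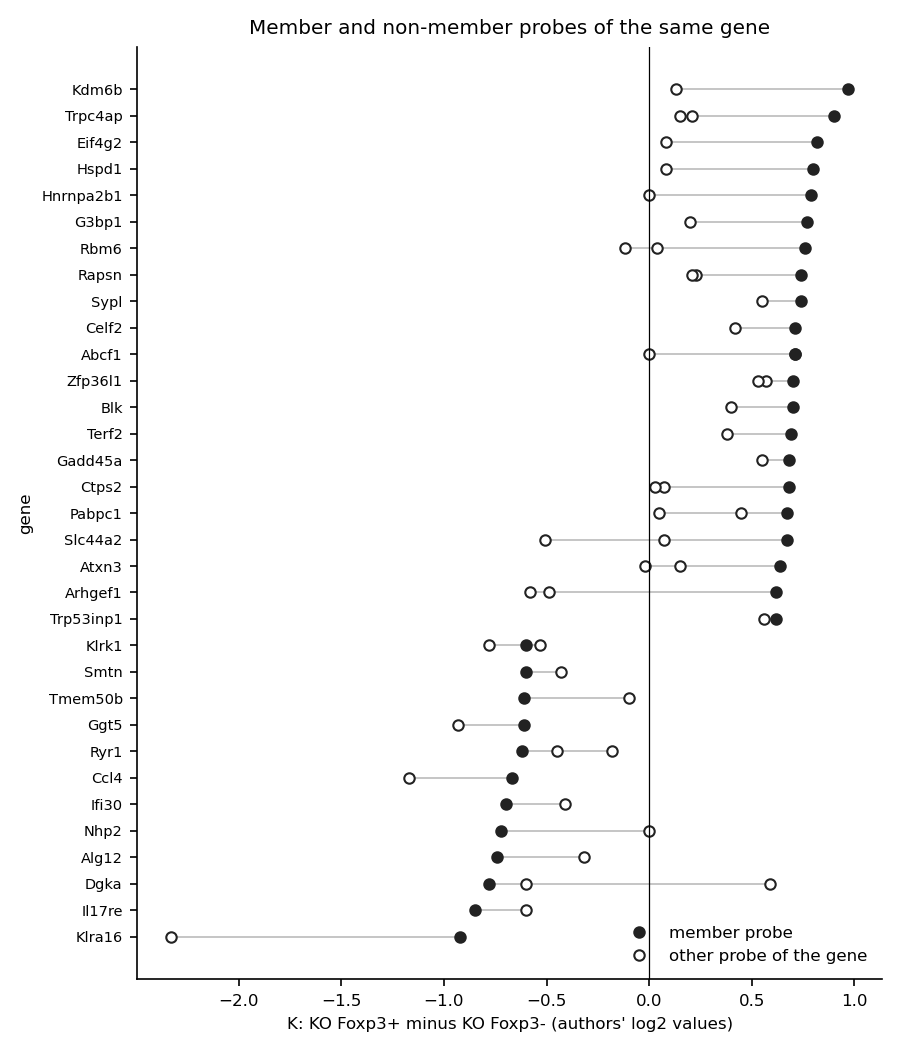
K on the authors' log2 scale for member probes (filled) and for other probes of the same gene detected on at least 2 arrays (open), for the 33 genes that have such a probe. Open points lie near 0 for Hspd1, Hnrnpa2b1 and Eif4g2, and on the other side of 0 for Arhgef1 and for 1 Dgka probe.

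With 1 KO array left out, an absolute K of at least 0.6 held for 36 to 46 of the 48 members with positive K and for 32 to 37 of the 40 with negative K, though the arrays kept had helped to choose them. The rule itself found 85 and 79 probes with positive K without KO Foxp3+ replicate 1 and without replicate 2, and 36 and 39 of these were members. Applied to the replicate 1 arrays alone, the rule found 89 probes with positive K and 67 with negative K. In the replicate 2 arrays, which had not chosen them, 87 and 66 of these kept the sign of K and 28 and 29 still reached 0.6. The absolute D was under 0.3 there for 63 and 55 of them. Applied to replicate 2 alone it found 71 and 65 probes. Of these, 70 and 63 kept the sign in replicate 1, 18 and 33 reached 0.6, and 57 and 54 had an absolute D under 0.3. Both single-replicate lists shared 11 probes with positive K and 26 with negative K. The share of all probes that keep their sign between replicates is not given here. Because the replicates may be technical, these counts are a description and no independent support.

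Just inside the bar on K were Psmd8 at 0.6137 and Trp53inp1 at 0.6157 and, on the negative side, Smtn at -0.6012 and Klrk1 at -0.6014. Just outside were Tceal9 at 0.5989 and Gdpd3 at 0.5987 and, on the negative side, Acap1 at -0.6 after rounding and a probe without a gene name at -0.5985.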

How the data were processed

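The authors deposited a linear intensity and a detection p-value per probe and array for 25697 probes, not normalized between arrays, and a processed log2 table of 14942 probes. GenomeStudio 2011.1 is named per the submitters' processing notes; the sources used here give neither settings nor a genome build. Log2 intensities that were quantile-normalized with no background step came within 0.000675 of every value of the authors' table.

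The rule was applied to the authors' log2 values. Tests used neqc (background correction inferred from detection p-values, offset 16, quantile normalization) in limma 3.58.1 under R 4.3.3. A detection p under 0.05 was required on 2 or more arrays, and the 13526 probes left were fitted with 4 group means by lmFit and eBayes (4 residual and 4 prior degrees of freedom, prior SD 0.13). P-values were two-sided and adjusted over all tested probes by Benjamini-Hochberg, with calls at 0.05. All adjusted p-values are from limma. With 2 against 2 arrays an exact permutation test cannot go below p = 0.333 and was not used. The small number of arrays limits the precision. The fit was tested on simulated data.

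Gene names came from the platform annotation, updated to RefSeq symbols (GRCm38.p6): 14017 of the 14942 probes had 1 symbol, 925 none and 0 several. Named were Tcf12 and Foxp3, the 12 highest and 12 lowest K among detected, named members whose KO arrays did not overlap, the 8 highest and 8 lowest called M, members on the gene lists, and probes next to the bar. Other genes were named to describe groups after their values were seen. The members and all lists were chosen with earlier results of these data known. All 8 arrays were on 1 chip, each at its own position, so position and group cannot be told apart. Replicate numbers were checked for pairing: replicate differences correlated at -0.03 to 0.10 between groups. With a single difference per group this cannot exclude that fractions with the same number came from the same mice. The labels do not say, and the main fit used no pairing. Alternatives were other background corrections, filters, normalizations and spread models, a replicate block, other bars on K and D, and leaving out each array.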

Additional observations from a re-analysis of the deposited data

Results flagged for a closer look

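In 19 of the 48 members with positive K and in 22 of the 40 with negative K, the genotype effect (KO minus WT) was unequal between Foxp3+ and Foxp3- cells by limma's interaction term. The interaction equals K minus D, which chose the members, so the counts describe the choice and its direction is fixed by it. The share of all tested probes with such a call is not given here, and nothing is read from the counts. All 48 interactions with positive K were above 0 and all 40 with negative K below 0, with medians of 0.88 and -1.38 on the neqc log2 scale, against 0.02 over all tested probes. Groups of 2 arrays were too small for a check of single outlying arrays.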

How the results depend on the processing

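Among 38 named members and 16 alternatives for M, 581 values kept direction and call, 11 lost the call, 2 gained it and none reversed a call; 10 uncalled values changed sign. The replicate block changed no count among members (25 lower and 5 higher with positive K, 29 higher and 1 lower with negative K) and called 2804 probes in all, against 3062. Restricting the test to probes detected on all 8 arrays left 68 members, since dim members were not tested. Of these, 3 of 44 with positive K and 15 of 24 with negative K were higher. Leaving out single arrays gave 3 to 7 positive K members higher, 0 to 2 negative K members lower and 1614 to 3807 probes called in all. The 5 higher members with positive K became 3 without either WT Foxp3+ array, WT Foxp3- replicate 1 or either KO Foxp3- array. The 1 lower member with negative K became 0 without either WT Foxp3+ array, WT Foxp3- replicate 2 or KO Foxp3- replicate 2. It became 2 when KO Foxp3+ replicate 2 was left out. The probes called fell to 1614 to 1967 without any 1 WT or KO Foxp3- array. The number of members depended on the rule. It was 221 with positive and 177 with negative K on neqc values, 113 and 75 at an absolute K of at least 0.5, 11 and 17 at 0.8, and 30 and 22 at an absolute D under 0.2. It was 66 with negative K at an absolute D under 0.4, 89 and 67 on replicate 1 alone, and 65 with negative K on replicate 2 alone. Without single arrays it was 38 to 85 with positive K, and 85 and 79 without KO Foxp3+ replicate 1 and replicate 2. The causes were not tested beyond what each setting changes by construction. With 2 arrays per group small differences are not resolved, and dim probes have bounds alone.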

Other observations

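Beyond the members, Il4, the signature cytokine of type 2 responses, read 5.01 and 4.64 in KO Foxp3+ cells and 8.56 and 8.49 in KO Foxp3- cells, against 4.35 and 4.64 in WT Foxp3+ cells and 7.47 and 7.64 in WT Foxp3- cells. Its fractions parted in both genotypes, and the average difference was 0.65 (limma, adjusted p = 0.00624). Cxcr6, a chemokine receptor of effector and innate-like T cells, read 5.63 and 4.45 in KO Foxp3+ cells and 7.88 and 8.27 in KO Foxp3- cells, against 4.73 and 4.40 in WT Foxp3+ cells and 5.99 and 5.88 in WT Foxp3- cells, with an average difference of 1.31 (limma, adjusted p = 0.00777). Myeloid and dendritic cell markers, of which none was a member, summed to 8863 to 11250 in KO Foxp3+ cells, 2581 to 2687 in KO Foxp3- cells, 28730 to 31160 in WT Foxp3+ cells and 2032 to 2152 in WT Foxp3- cells. Of 38 tested probes for regulatory T cell genes, none a member, 18 were higher and 7 lower in KO on average, with a median of 0.21.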
